A study of Mus musculus with 17 samples.

Results

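The Hox genes encode homeodomain transcription factors that lie in 4 clusters, A to D, and are numbered by paralog group along each cluster. All genes of the mouse annotation whose symbol is Hoxa, Hoxb, Hoxc or Hoxd followed by a number were taken, which gave 39 members of the 53379 genes in the count table. Cluster A holds 11 of them on chromosome 6 (minus strand), cluster B 10 on chromosome 11 (96194316 to 96368256, GRCm38), cluster C 9 on chromosome 15 (102921103 to 103036852) and cluster D 9 on chromosome 2 (74668310 to 74765142), the last 3 clusters on the plus strand. Gene positions are from GENCODE M21. RNA came from kidney cortex enriched for glomeruli, the capillary tufts that filter the blood, of 17 mice of the BTBR strain. One group was 5 wild type mice (genotype label WT-d30). Another was 5 ob/ob mice (label ob/ob-d30), which lack leptin and become obese and diabetic on this strain background, given saline. The third was 7 ob/ob mice (label BTBR ob) that drank water with atrasentan, which blocks the endothelin A receptor, at a dose of 5 mg per kg of body weight daily. Treatment ran for 6 weeks, from 18 to 24 weeks of age, and all mice were killed at the same age. The mice were bred from heterozygotes of the line BTBR.V(B6)-Lepob/WiscJ, and the ending d30 of 2 genotype labels is unexplained in the labels.

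Hox genes are switched on in order along each cluster in the embryo, so that genes of low paralog number mark anterior and those of high number posterior positions. In the kidney, Hoxa11, Hoxc11 and Hoxd11 act together with Eya1 and Pax2 in the mesenchyme that forms nephrons, members of paralog group 10 act in the embryonic stroma, and Hoxb7 marks the ureteric bud, which forms the collecting ducts. Hox proteins bind DNA with partners of the TALE class (Pbx, Meis and Pknox proteins). Adult kidney cells keep Hox transcripts of their lineage.

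The upstream sequences of 4 members are shown because the results turn on them: Hoxa11 and its paralog Hoxd11, which moved in opposite directions with atrasentan, Hoxd4, which fell with atrasentan, and Hoxd10, which was higher in saline-treated ob/ob mice. Each is the 250 bases before a transcript start of RefSeq on GRCm38.p6, read 5′ to 3′ on the strand of the gene. Capitals mark a match to 1 of 2 motifs searched on both strands, TGATTNAT, a site for a Pbx and Hox protein pair, and TTTATNG, a site for posterior Hox proteins. The windows are chr6:52245811-52246060 (minus strand) for Hoxa11, chr2:74682073-74682322 for Hoxd11, chr2:74721728-74721977 for Hoxd4 and chr2:74691641-74691890 for Hoxd10 (plus strand). The Hoxa11 window also overlaps exons of the antisense RNA gene Hoxa11os, and the Hoxd11 window is the second of 2 RefSeq starts and lies within the longer transcript's gene body. The Hoxd4 window likewise lies inside the annotated spans of Hoxd4 (74711929 to 74729160) and of Hoxd3 (74711927 to 74748442).
Hoxa11: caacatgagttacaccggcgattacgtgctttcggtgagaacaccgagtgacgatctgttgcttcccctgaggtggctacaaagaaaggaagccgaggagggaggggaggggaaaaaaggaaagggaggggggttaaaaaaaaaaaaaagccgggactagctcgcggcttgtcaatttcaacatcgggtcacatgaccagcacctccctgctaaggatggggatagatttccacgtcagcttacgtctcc
Hoxd11: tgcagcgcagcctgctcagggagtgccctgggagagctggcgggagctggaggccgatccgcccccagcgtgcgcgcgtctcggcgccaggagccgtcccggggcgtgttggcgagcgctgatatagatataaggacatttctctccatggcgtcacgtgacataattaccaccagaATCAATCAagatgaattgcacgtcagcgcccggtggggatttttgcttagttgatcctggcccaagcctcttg
Hoxd4: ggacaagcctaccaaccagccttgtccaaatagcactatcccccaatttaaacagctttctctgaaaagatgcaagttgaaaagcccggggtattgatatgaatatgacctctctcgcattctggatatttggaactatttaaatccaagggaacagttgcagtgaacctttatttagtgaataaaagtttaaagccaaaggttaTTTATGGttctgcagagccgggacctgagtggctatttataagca
Hoxd10: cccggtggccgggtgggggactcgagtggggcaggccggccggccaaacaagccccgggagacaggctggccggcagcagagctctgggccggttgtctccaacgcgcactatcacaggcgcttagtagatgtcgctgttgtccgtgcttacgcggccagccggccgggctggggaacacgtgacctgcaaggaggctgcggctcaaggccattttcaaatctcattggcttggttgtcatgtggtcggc
The Hoxd11 window shown held 1 match to TGATTNAT, on the minus strand, 73 bases before the start, and Hoxd4 held 1 match to TTTATNG, 45 bases before the start. The windows of Hoxa11 and Hoxd10 held neither, nor did the window of the first Hoxd11 start (chr2:74679308-74679557), which is not shown. RefSeq windows were found for 22 members (24 windows). TGATTNAT was in 2 of these 24 (8.33%), those of Hoxd11 and Hoxa2, and in 2.82% of 32851 windows of all genes. TTTATNG was in the windows of Hoxd4 and Hoxb8 (8.33%) and in 9.81% of all windows. The 2 motifs overlapped in none of the 4 sequences shown.

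Libraries held 29161833 to 52528747 reads in genes. All are labelled as batch 1, and their numbering follows the groups, so library order and group cannot be told apart.

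Adult glomeruli-enriched cortex held transcripts of most Hox genes, and the level differed along the clusters. Hox genes took 541 to 756 of each 1000000 gene reads in a mouse. Reads were found for 36 members, and 31 passed the low-count filter. The other 8 were Hoxa13, Hoxb1, Hoxb13, Hoxc12, Hoxc13, Hoxd1, Hoxd12 and Hoxd13. Hoxa13, Hoxd12 and Hoxd13 had no read in any mouse, which allows up to 3 reads, or 0.0571 to 0.103 CPM (counts per 1000000 gene reads) per library, by counting error alone. Hoxc13 had 21 reads over all 17 mice, Hoxc12 14, Hoxd1 8, Hoxb13 5 and Hoxb1 3. Paralog groups 12 and 13 were thus at or near 0 in every cluster that has them, as were Hoxb1 and Hoxd1. The highest levels were in groups 5 to 10, though not every member of these groups was high.

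Levels of different genes are compared per kilobase of exon (CPM per kb). Over all 17 mice the highest mean was that of Hoxd8, a gene of trunk patterning, at 30.6 ± 9.91 CPM per kb (SD). Hoxa10, which patterns the lumbar region and the uterus, followed at 24.4 ± 3.31, Hoxb7 at 22.6 ± 4.66, Hoxd9 at 19.2 ± 4.66 and Hoxb5 at 18.1 ± 4.85 CPM per kb. Each of these overlapped its neighbour in range, so their order is not beyond the spread between mice. With the length of the longest transcript in place of all exons, Hoxa10 was at 31.2 CPM per kb, beside 31.9 for Hoxd8.

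In wild type mice the order was Hoxd8, Hoxa10, Hoxc8, Hoxb7, Hoxc6, Hoxa7, Hoxb5, Hoxd9 and Hoxb6, from 26.7 ± 4.32 down to 14.01 ± 2.56 CPM per kb (SD, n = 5). Neighbours among these 9 overlapped in range. Below them was a step without overlap to Hoxa9 (9.87 ± 1.35 CPM per kb), and another between Hoxc9 (6.97 ± 1.08) and Hoxa11 (4.26 ± 0.299). Within paralog group 11 the levels were far apart: Hoxa11 stood at 4.26, Hoxc11 at 0.219 ± 0.0683 and Hoxd11 at 0.132 ± 0.0277 CPM per kb in wild type mice. Members of group 10 were at 24.8 (Hoxa10), 8.92 (Hoxc10) and 3.12 (Hoxd10) CPM per kb. In groups 1 to 4, the 10 members that passed the filter lay between 0.101 (Hoxd3) and 3.02 (Hoxb4) CPM per kb in wild type. Groups 5 to 8 also held low members: Hoxb8 at 0.522, Hoxa6 at 1.66 and Hoxc5 at 1.74 CPM per kb in wild type, all below Hoxb4 and Hoxb2 (1.95).

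**Figure D1:**
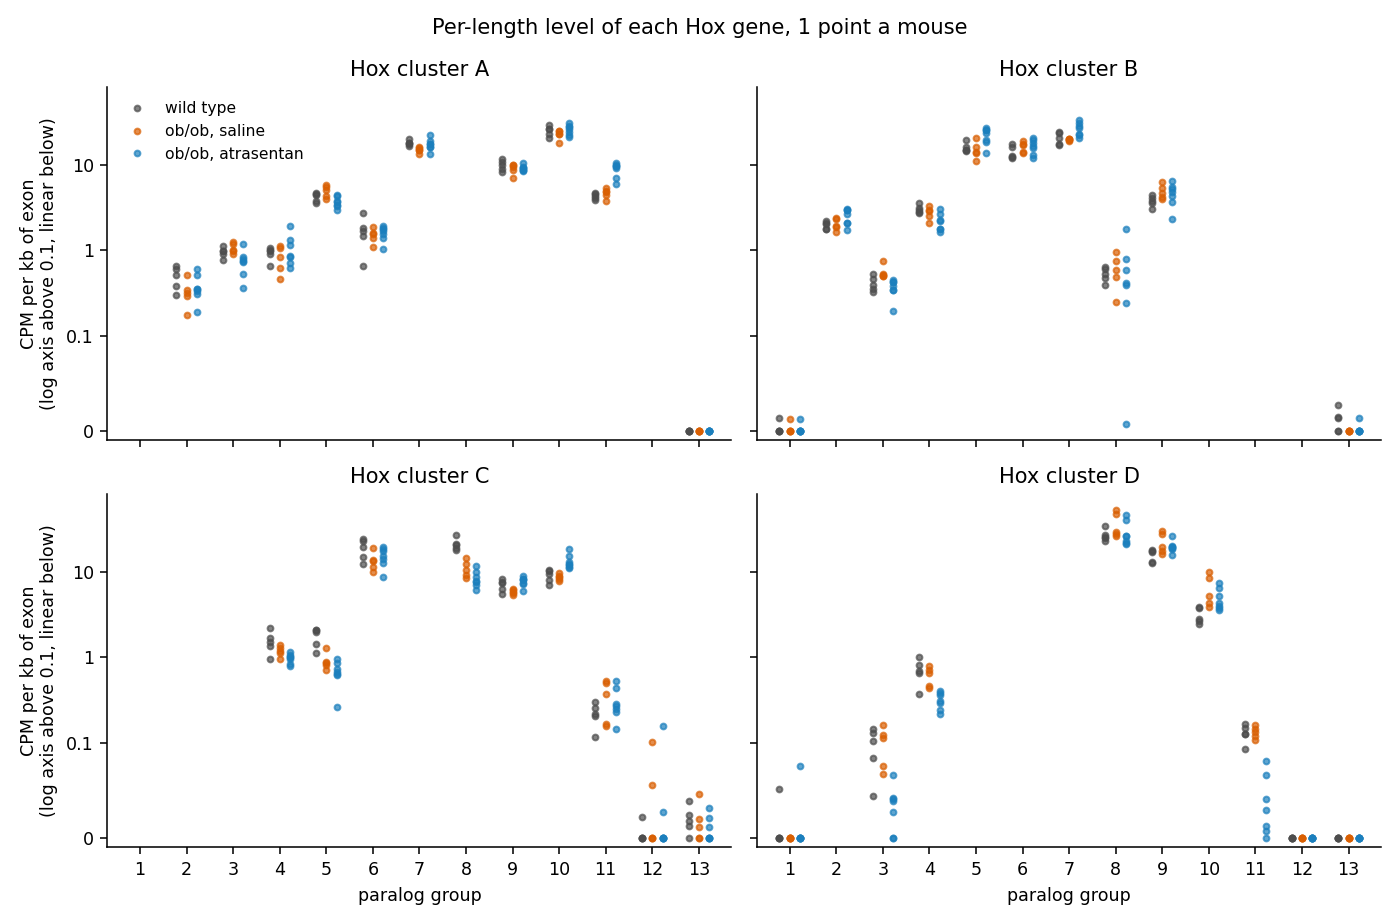
Per-length level (CPM per kb of exon, log axis above 0.1 and linear below) of 38 Hox genes by paralog group, 1 panel a cluster and 1 point a mouse in 3 colours for the groups. The highest levels are at groups 5 to 10, where some members are low, with Hoxd8 highest at a mean of 30.6. Levels are at or near 0 at group 13, and Hoxc8 is the member of the middle groups whose wild type points lie above all others.

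The share of each cluster in all Hox reads was counted per mouse. Cluster C took 24.2% ± 1.25 of Hox reads in wild type mice (22.8% to 25.8%, SD, n = 5), 17.1% ± 3.77 with saline (12.9% to 22.3%, n = 5) and 17.5% ± 2.75 with atrasentan (14.4% to 21.3%, n = 7). Every ob/ob mouse lay below every wild type mouse in this share, though with per-length levels the highest saline mouse (23.6%) passed the lowest wild type mouse (23.5%). Cluster D took 18.9% ± 1.26 in wild type and 26.8% ± 6.58 with saline, again without overlap (17.4% to 20.5% against 21.3% to 35.8%), and 21.03% ± 4.78 with atrasentan. Cluster A took 35.4% ± 1.53, 33.2% ± 1.67 and 35.3% ± 2.38, and cluster B 21.5% ± 2.14, 22.9% ± 3.44 and 26.1% ± 3.99, in the same order of groups. The sum of all members was 610 ± 62.0 CPM in wild type, 593 ± 49.7 with saline and 624.8 ± 44.1 with atrasentan, within the spread between mice. These shares are descriptions and carry no test.

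Of the 39 members, 16 share exon bases with another annotated gene, and how the authors counted such reads is not known here. Hoxd3 (62.9% of its exon bases), Hoxb3 (52.9%) and Hoxd4 (52.3%) share more than any others, Hoxa11 shares 34.98% with Hoxa11os, and the values of these 4 are the most uncertain. The share was at most 27.3% in the other 12, among them Hoxa2, Hoxa3, Hoxa4, Hoxa7, Hoxa9, Hoxb2, Hoxb5, Hoxc5, Hoxc10, Hoxd10 and Hoxd11. The library kit does not mark strand, so reads of a member and of an antisense gene over it cannot be told apart.

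Saline-treated ob/ob mice were compared with wild type mice to ask what differs in the diabetic kidney. Hoxc8, which patterns the thoracic skeleton and its motor neurons, was lower, and Hoxd10, which acts in the lumbar region, was higher. These were 2 of the 31 members tested (6.45%), beside 5.12% of all 17766 genes tested by edgeR's quasi-likelihood test at an adjusted p under 0.05 (3.21% higher and 1.91% lower). The median log2 fold change of the members was -0.06, and that of all genes 0.01. With upper-quartile scaling Hoxc5 was also called, which made 1 higher and 2 lower.

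Hoxc8 stood at 50.04, 54.1, 57.7, 59.2 and 75.9 CPM in the wild type mice, at 23.9, 26.0, 29.5, 34.7 and 40.7 CPM with saline and at 17.1 to 32.6 CPM (median 22.1) with atrasentan. Every ob/ob mouse, treated or not, was below every wild type mouse. Hoxc8 fell by 0.94 ± 0.18 on the log2 scale in saline-treated against wild type mice (SE, edgeR adjusted p = 0.01001), and the means were 31.0 ± 6.80 against 59.4 ± 9.89 CPM (SD, n = 5 each). Hoxc5, whose intron hosts the microRNA gene Mir615, stood at 3.46, 4.41, 6.13, 6.39 and 6.45 CPM in wild type, at 2.18, 2.50, 2.63, 2.71 and 3.95 CPM with saline and at 0.816 to 2.94 CPM (median 2.07) with atrasentan. Saline and wild type mice overlapped in 1 pair of values, and the log2 fold change of -0.94 ± 0.28 had an edgeR adjusted p = 0.0600.

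Hoxd10 stood at 4.41, 4.80, 5.13, 6.89 and 7.08 CPM in wild type, at 7.03, 7.77, 9.48, 15.1 and 18.2 CPM with saline and at 6.49 to 13.4 CPM (median 7.86) with atrasentan. The 2 highest values were those of saline mice 1 and 3, and the lowest saline mouse was just under the highest wild type mouse. Hoxd10 was higher by 1.02 ± 0.27 on the log2 scale with saline (edgeR adjusted p = 0.0410). Hoxd9 and Hoxd8, the next genes of lower paralog number in cluster D, had log2 fold changes of 0.50 ± 0.17 (adjusted p = 0.0983) and 0.45 ± 0.24 (adjusted p = 0.298). The neighbour of higher number, the scarce Hoxd11, had a value of 0.008 ± 0.55 (adjusted p = 0.997). Hoxd9 stood at 26.9, 27.7, 36.4, 37.3 and 38.3 CPM in wild type, at 34.3, 37.0, 41.6, 59.2 and 63.2 CPM with saline and at 33.5 to 55.8 CPM (median 41.3) with atrasentan. Hoxd8 stood at 62.1, 67.8, 69.5, 73.7 and 93.1 CPM in wild type, at 70.8, 74.8, 79.6, 131 and 145 CPM with saline and at 57.8 to 126 CPM (median 71.1) with atrasentan. Saline mice 1 and 3 were again the highest in both genes, and the other 3 saline mice lay within or close to the wild type range.

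Markers of other cells moved with this comparison. Of 15 proximal tubule markers 5 rose and 1 fell, and their summed level was 1479 to 3236 CPM in wild type and 2587 to 11241 CPM with saline. Saline mice 1 and 3 had the highest mean log2 CPM of this list (8.53 and 8.61). Of 15 podocyte markers 7 fell and none rose (summed level 9403 to 15038 against 5228 to 10433 CPM), and of 10 distal tubule markers 3 rose (521 to 828 against 863 to 3150 CPM). Of 10 intercalated cell markers 2 rose, Atp6v0d2 and Slc4a1, the latter also a marker of red cells. The summed level of the intercalated cell list did not overlap (34.1 to 71.2 against 72.4 to 304 CPM). In bulk RNA, fewer cells of a type and less RNA per cell cannot be told apart. Without saline mice 1 and 3, Hoxc8 had a log2 fold change of -0.77 ± 0.20 (edgeR adjusted p = 0.117) and Hoxd10 of 0.50 ± 0.24 (adjusted p = 0.519). With the podocyte mean minus the proximal tubule mean as a covariate (the glomerular share), the values were -0.51 ± 0.19 (adjusted p = 0.464) and 0.20 ± 0.30 (adjusted p = 0.903). With the collecting duct mean they were -0.69 ± 0.15 (adjusted p = 0.0526) and 0.56 ± 0.26 (adjusted p = 0.374). The podocyte mean, a part of the glomerular share, did not overlap between these groups (8.13 to 8.89 in log2 CPM in wild type, 7.00 to 8.06 with saline). The fit with the glomerular share therefore could not fully separate the covariate from the group.

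The Hoxd10 call was lost without any 1 of the 5 wild type mice or of saline mice 1, 3 and 5 (edgeR adjusted p of 0.0515 to 0.136), which left Hoxc8 alone. The Hoxc8 call was kept without each of the 17 mice in turn, and 3 members did not overlap between the groups (9.68%, beside 7.42% of all genes), Hoxc8 and Hoxa7 among them.

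**Figure D2:**
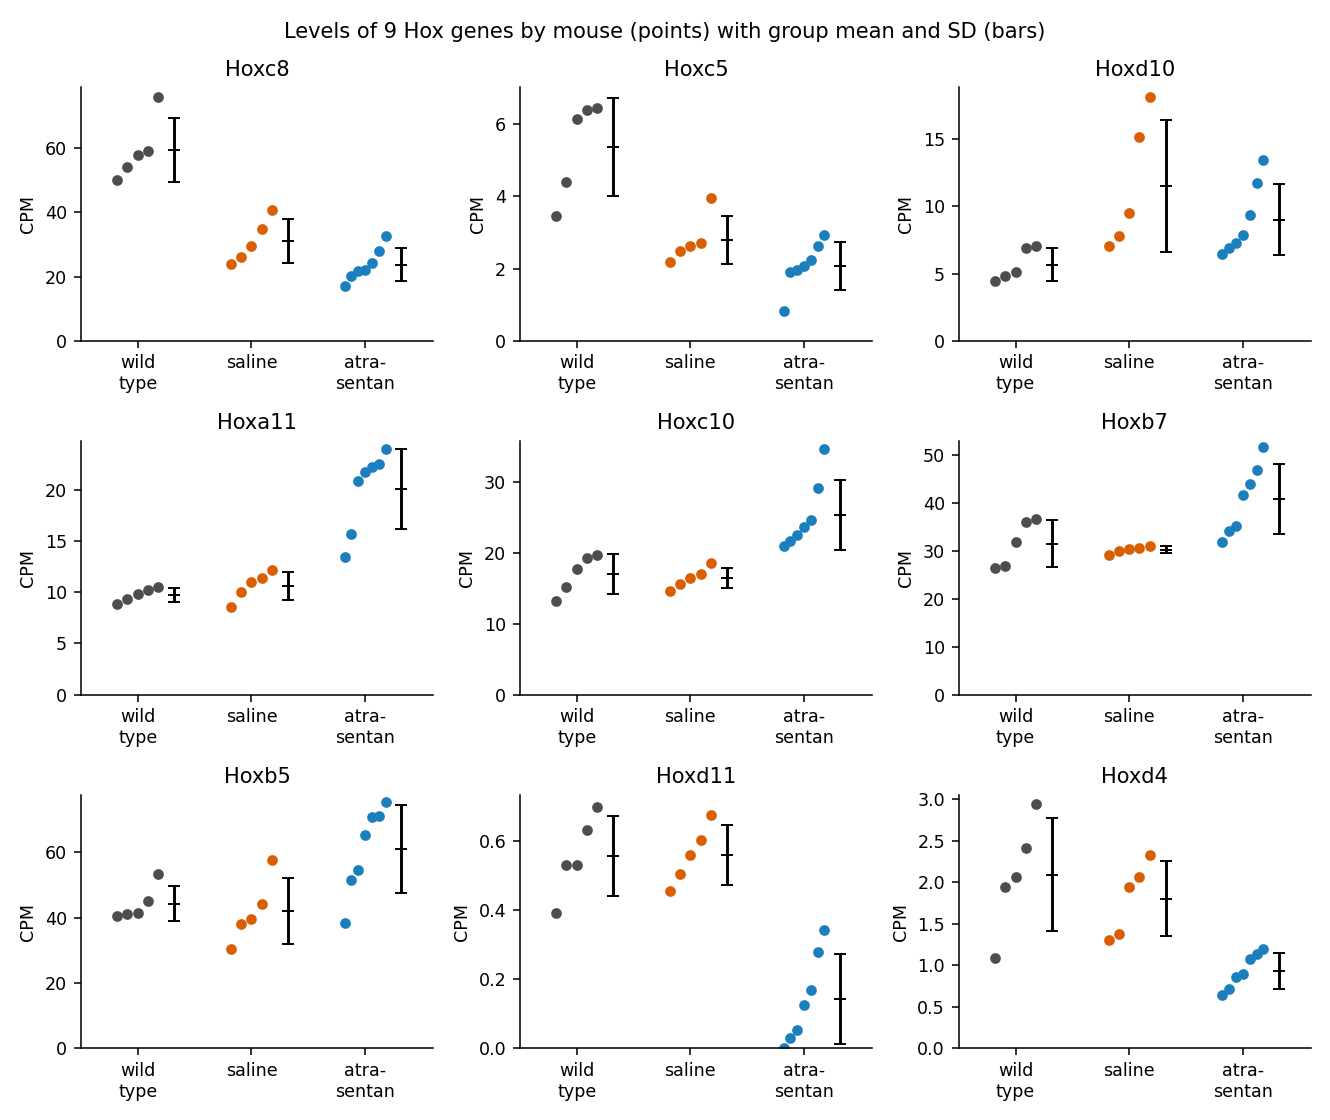
Levels in CPM of 9 Hox genes, with 1 point a mouse (sorted by value within a group) and the group mean ± SD beside the points. Hoxc8 is lower in all ob/ob mice than in wild type, Hoxa11 and Hoxc10 are higher in all 7 atrasentan mice than in any other mouse, and Hoxd11 is lower there than in any other mouse.

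Atrasentan-treated ob/ob mice were compared with saline-treated ob/ob mice to ask what differs after endothelin A receptor blockade. Hoxa11, Hoxc10, Hoxb7, Hoxb5 and Hoxc9 rose, and Hoxd11, Hoxd3, Hoxd4, Hoxb3 and Hoxa5 fell. These 10 of 31 members (32.3%) stand beside 33.8% of all genes tested in the same comparison (15.3% higher and 18.5% lower), a share near that background. The groups did not overlap in 7 members (22.6%, beside 11.8% of all genes). The median log2 fold change of the members was -0.10, and that of all genes -0.01. Of the 10 members tested in paralog groups 1 to 4, 3 fell and none rose (median -0.39). These 3 were Hoxb3, Hoxd3 and Hoxd4, the members that share most of their exon bases with other genes. Hoxd3 and Hoxd4 share exons with each other, so their falls are not separate observations. Of the 10 tested in groups 9 to 13, 3 rose and 1 fell (median -0.04). Of the 11 in groups 5 to 8, 2 rose and 1 fell.

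Hoxa11 changed by the widest margin relative to its error. It stood at 8.82, 9.29, 9.84, 10.2 and 10.501 CPM in wild type, at 8.56, 10.025, 11.02, 11.3 and 12.1 CPM with saline and at 13.4 to 24.0 CPM (median 21.7) with atrasentan. All 7 atrasentan mice were above all 10 others. Hoxa11 rose by 0.92 ± 0.14 on the log2 scale against saline (edgeR adjusted p = 0.000322; 20.1 ± 3.93 against 10.6 ± 1.37 CPM). The antisense gene Hoxa11os rose as well, by 0.85 ± 0.18 (adjusted p = 0.00224; 10.9 ± 1.37 against 6.06 ± 1.73 CPM), and their reads cannot be told apart where they overlap.

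Its paralog Hoxd11, which acts with Hoxa11 in the limb and kidney, was scarce and moved the other way. Hoxd11 stood at 0.392, 0.530, 0.532, 0.632 and 0.700 CPM in wild type, at 0.454, 0.505, 0.559, 0.604 and 0.676 CPM with saline and at 0 to 0.342 CPM (median 0.125) with atrasentan. No atrasentan mouse reached any other mouse, but these values rest on 0 to 26 reads a library. Hoxd11 fell by 1.93 ± 0.53 on the log2 scale (edgeR adjusted p = 0.0105). The third gene of that group, Hoxc11, had a log2 fold change of -0.19 ± 0.38 (adjusted p = 0.735).

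Hoxc10, which with Hoxa10 and Hoxd10 sets hindlimb motor neuron fate, stood at 13.2, 15.2, 17.7, 19.3 and 19.7 CPM in wild type, at 14.7, 15.6, 16.5, 17.04 and 18.5 CPM with saline and at 20.96 to 34.7 CPM (median 23.6) with atrasentan. Again all 7 atrasentan mice were above the rest, and Hoxc10 rose by 0.62 ± 0.14 on the log2 scale against saline (edgeR adjusted p = 0.00280). Its cluster neighbour Hoxc9, a regulator of thoracic motor neurons, stood at 13.2, 15.4, 18.1, 18.4 and 19.7 CPM in wild type, at 13.003, 13.69, 13.96, 14.8 and 15.1 CPM with saline and at 14.2 to 21.7 CPM (median 19.3) with atrasentan. Hoxc9 rose by 0.40 ± 0.12 against saline (adjusted p = 0.0158) and overlapped wild type in range.

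Hoxb7, the gene of the ureteric bud, stood at 26.3, 26.7, 31.8, 35.9 and 36.6 CPM in wild type, at 29.1, 29.9, 30.4, 30.5 and 31.1 CPM with saline and at 31.7 to 51.6 CPM (median 41.6) with atrasentan. The saline mice were close together and all below the atrasentan mice, and Hoxb7 rose by 0.43 ± 0.12 on the log2 scale (edgeR adjusted p = 0.0130). Hoxb5, known from enteric neural crest, stood at 40.5, 41.0, 41.3, 45.1 and 53.4 CPM in wild type, at 30.5, 38.0, 39.5, 44.3 and 57.6 CPM with saline and at 38.2 to 75.4 CPM (median 65.4) with atrasentan. The groups overlapped, and Hoxb5 rose by 0.54 ± 0.17 (adjusted p = 0.0193). Of 10 tested markers of collecting duct principal cells, which descend from the ureteric bud, none was called by edgeR (1 had an unadjusted p under 0.05), and the summed level of the list was 399 to 735 CPM with saline and 292 to 999 CPM with atrasentan. Of 10 markers of intercalated cells, also of the collecting duct, 5 fell and none rose (median log2 fold change -1.47).

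Hoxd4 and Hoxd3, which fell, lie next to each other in cluster D and share exons. Hoxd4 stood at 1.09, 1.95, 2.06, 2.41 and 2.94 CPM in wild type, at 1.30, 1.37, 1.94, 2.07 and 2.33 CPM with saline and at 0.640 to 1.196 CPM (median 0.898) with atrasentan. Hoxd3 stood at 0.183, 0.354, 0.443, 0.543 and 0.601 CPM in wild type, at 0.279, 0.315, 0.481, 0.511 and 0.676 CPM with saline and at 0 to 0.279 CPM (median 0.163) with atrasentan. In both genes all atrasentan mice were below every saline mouse, though the highest and lowest of Hoxd3 differ only past the digits printed. Hoxd4 fell by 0.95 ± 0.25 (edgeR adjusted p = 0.00896) and Hoxd3 fell by 1.76 ± 0.59 (adjusted p = 0.0281). Both genes pattern cervical vertebrae. The RNA gene Hoxd3os1, which overlaps them, rose by 0.49 ± 0.11 (adjusted p = 0.00237; 14.002 ± 1.40 against 9.97 ± 1.15 CPM).

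Hoxb3 stood at 1.37, 1.51, 1.68, 1.93 and 2.21 CPM in wild type, at 2.09, 2.10, 2.18, 2.22 and 3.13 CPM with saline and at 0.816 to 1.90 CPM (median 1.62) with atrasentan. The saline mice were above all atrasentan mice, and Hoxb3 fell by 0.60 ± 0.22 on the log2 scale (edgeR adjusted p = 0.0414). Hoxa5, a regulator of lung development, stood at 6.58, 6.97, 8.21, 8.43 and 8.82 CPM in wild type, at 7.33, 8.04, 9.53, 10.4 and 10.9 CPM with saline and at 5.51 to 8.25 CPM (median 6.81) with atrasentan. The groups overlapped, and Hoxa5 fell by 0.43 ± 0.14 (adjusted p = 0.0257). Hoxa10, the second most abundant member, stood at 67.1, 73.7, 84.2, 84.5 and 95.2 CPM in wild type, at 59.1, 73.5, 74.2, 80.1 and 80.5 CPM with saline and at 69.0 to 101 CPM (median 84.2) with atrasentan, and had an adjusted p of 0.197 (log2 fold change 0.19 ± 0.11).

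The marker lists moved widely in this comparison. Of 15 proximal tubule markers 13 fell (summed level 2587 to 11241 CPM with saline and 469 to 2076 CPM with atrasentan), as did 5 of 10 of the loop of Henle (627 to 2894 against 130 to 2045 CPM) and 7 of 15 of podocytes (5228 to 10433 against 2594 to 5775 CPM). Of 12 mesangium markers 10 rose (6448 to 8574 against 9776 to 16151 CPM), and of 12 glomerular endothelium markers 10 rose (9466 to 12095 against 13539 to 17721 CPM). Of 10 macrophage markers 7 rose, and their summed level overlapped (294 to 485 against 440 to 1502 CPM). Their mean log2 CPM, a different measure, was 3.51 to 4.05 with saline and 4.44 to 6.44 with atrasentan, without overlap. Of 10 distal tubule markers 3 fell (863 to 3150 against 235 to 1657 CPM), and of 10 intercalated cell markers 5 fell (72.4 to 304 against 21.3 to 173 CPM). The 3 adrenal genes Cyp11b1, Cyp11b2 and Cyp21a1 had no read in any mouse, and the 8 urothelium markers summed to at most 3.39 CPM. The atrasentan libraries also had the lowest shares of reads outside genes, 3.17% to 5.65% against 5.95% to 8.17% with saline and 6.26% to 8.58% in wild type. They also had the fewest genes detected, 21396 to 23081 against 24335 to 25313 with saline and 23901 to 24877 in wild type. The part of the number of genes detected in the falls of scarce members such as Hoxd3 and Hoxd11 was not tested. Hoxa11 kept its call with the glomerular share (0.74 ± 0.18, edgeR adjusted p = 0.0181), the collecting duct mean (0.74 ± 0.15, adjusted p = 0.00441) or the stroma mean (1.02 ± 0.15, adjusted p = 0.000667) as a covariate. It had a value of 0.89 ± 0.31 (adjusted p = 0.0749) with the percentage of reads outside genes and of 0.72 ± 0.25 (adjusted p = 0.204) with the proximal tubule mean, 2 covariates chosen after seeing the data. Neither covariate overlapped between the 2 groups (proximal tubule mean 6.36 to 8.61 in log2 CPM with saline, 3.28 to 6.12 with atrasentan). These fits therefore could not fully separate the covariate from the group.

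With the glomerular share as a covariate 2 members were called, Hoxa11 higher and Hoxc8 lower, and with either covariate chosen after seeing the data none was. Without saline mice 1 and 3 the members called were 4, 2 higher (Hoxa11 and Hoxc10) and 2 lower (Hoxd11 and Hoxc8, the latter by -0.56 ± 0.18, edgeR adjusted p = 0.0466). Without saline mouse 3 alone they were 6. Calls lost without 1 mouse were those of Hoxa5 and Hoxb5 (saline 1 or 3, adjusted p of 0.0521 to 0.0886), Hoxd3 (saline 3 or 5, 0.0606 to 0.0745) and Hoxb3 (any saline mouse, wild type 5, or atrasentan 2, 4 or 6, 0.0503 to 0.118).

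Atrasentan-treated ob/ob mice were also compared with wild type mice, from which they differ in both genotype and treatment. Hoxa11, Hoxc10, Hoxb5 and Hoxb7 were higher, and Hoxc8, Hoxc5, Hoxd4, Hoxd11, Hoxc4, Hoxd3 and Hoxb4 were among those lower. The 12 of 31 members (38.7%) stand beside 29.2% of all genes tested (14.7% higher and 14.5% lower). With upper-quartile scaling 2 members were called higher and 8 lower. The groups did not overlap in 5 members (16.1%, beside 13.2% of all genes). No member of groups 1 to 4 was higher and 5 of the 10 tested were lower, with a median log2 fold change of -0.42 beside -0.01 over all genes. Among these 5 were Hoxd3 and Hoxd4, which share exons with each other. This comparison shares its wild type mice with the first and its atrasentan mice with the second, so its values are not independent of theirs.

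Against wild type, Hoxa11 rose by 1.04 ± 0.14 on the log2 scale (edgeR adjusted p = 7.64e-05), and Hoxc10 rose by 0.57 ± 0.14 (adjusted p = 0.00478). Hoxc8 fell by 1.33 ± 0.16 (adjusted p = 2.72e-05; 23.7 ± 5.20 against 59.4 ± 9.89 CPM) and Hoxc5 fell by 1.37 ± 0.26 (adjusted p = 0.000835; 2.08 ± 0.670 against 5.37 ± 1.36 CPM). In these 4 genes the groups did not overlap. Hoxd11 fell by 1.93 ± 0.53 (adjusted p = 0.0117), also without overlap, Hoxd4 fell by 1.16 ± 0.25 (adjusted p = 0.00253) and Hoxd3 fell by 1.67 ± 0.59 (adjusted p = 0.0409). Hoxc6, which comes between Hoxc8 and Hoxc5 in paralog order, was not called (-0.30 ± 0.21, edgeR adjusted p = 0.293).

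Hoxc4, the gene next to Hoxc5 and a regulator of antibody class switching in B cells, stood at 2.47, 3.46, 3.86, 4.33 and 5.63 CPM in wild type, at 2.47, 2.91, 3.03, 3.25 and 3.61 CPM with saline and at 2.05 to 2.95 CPM (median 2.59) with atrasentan. Hoxb4, known for expanding blood stem cells, stood at 6.93, 7.24, 7.51, 7.96 and 9.10 CPM in wild type, at 5.28, 6.39, 7.38, 7.56 and 8.43 CPM with saline and at 4.19 to 7.76 CPM (median 5.63) with atrasentan. In both genes the atrasentan and wild type ranges overlapped. Against wild type, Hoxc4 fell by 0.66 ± 0.19 (edgeR adjusted p = 0.0139) and Hoxb4 fell by 0.47 ± 0.17 (adjusted p = 0.0421). Hoxb5 rose by 0.46 ± 0.17 (adjusted p = 0.0436) and Hoxb7 by 0.37 ± 0.12 (adjusted p = 0.0301).

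Podocyte markers were lower in this comparison as well (14 of 15 fell, 9403 to 15038 CPM in wild type against 2594 to 5775 CPM with atrasentan). Of 15 proximal tubule markers 9 fell and none rose, and of 10 macrophage markers 7 rose. The 9 tested stroma markers were split, as 4 fell and 3 rose. Hoxc8, Hoxc5, Hoxa11, Hoxc10, Hoxd4 and Hoxd11 kept their calls without each mouse in turn and with the glomerular share, collecting duct and stroma covariates. With the proximal tubule mean, Hoxc8, Hoxc5 and Hoxa11 kept theirs, and the calls of Hoxc10 (0.54 ± 0.19, edgeR adjusted p = 0.0518), Hoxd4 (-0.84 ± 0.34, adjusted p = 0.0889) and Hoxd11 (-1.26 ± 0.64, adjusted p = 0.179) were lost. With the percentage of reads outside genes in the fit no member was called, and Hoxc8 was at -1.45 ± 0.40 (edgeR adjusted p = 0.0555). The calls of Hoxb4 (12 of the 17 mice), Hoxb5 (10), Hoxd3 (8), Hoxb7 (6) and Hoxc4 (wild type 4) were lost without 1 mouse, at adjusted p of 0.0505 to 0.116, and 7 members were left without wild type mouse 1 or without wild type mouse 3.

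**Figure D3:**
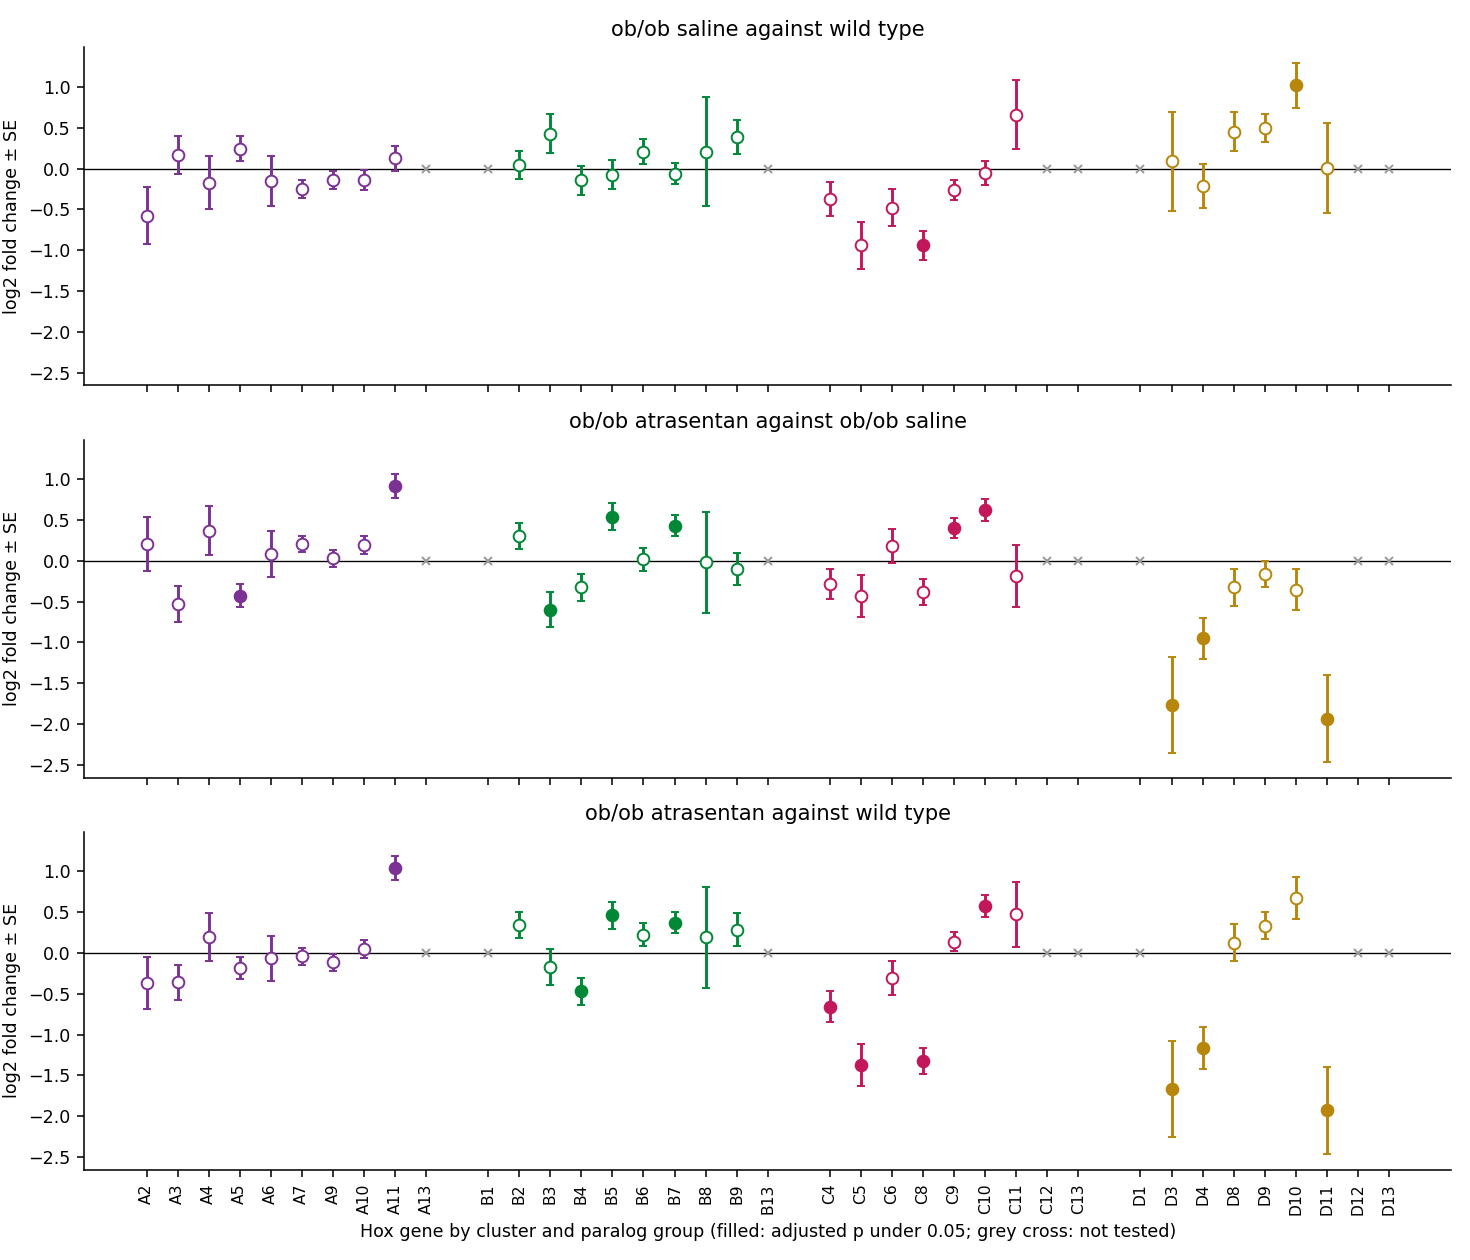
Log2 fold change ± SE of 30 tested Hox genes in the 3 comparisons, ordered by cluster and paralog group; filled points have an adjusted p under 0.05, and grey crosses mark the 8 members not tested. In saline against wild type mice Hoxc8 (-0.94) and Hoxd10 (1.02) are filled; with atrasentan Hoxa11 stands above 0 and Hoxd3, Hoxd4 and Hoxd11 below it in both comparisons.

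The 15 members that passed the filter but were called in no comparison were Hoxa2, Hoxa3, Hoxa4, Hoxa6, Hoxa7, Hoxa9, Hoxa10, Hoxb2, Hoxb6, Hoxb8, Hoxb9, Hoxc6, Hoxc11, Hoxd8 and Hoxd9. They include 6 of the 9 most abundant members in wild type mice, namely Hoxd8, Hoxa10, Hoxc6, Hoxa7, Hoxd9 and Hoxb6. Hoxa3 came closest with atrasentan against saline (-0.53 ± 0.22, edgeR adjusted p = 0.0692). Hoxb8 ranged from 0.0199 CPM (1 read) to 4.67 CPM among the atrasentan mice, a wider spread than in the other groups (1.03 to 1.65 and 0.657 to 2.53 CPM).

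To set Hox genes beside cell types, the deviations of 29 members from their group means were correlated with those of 9 marker list means over the 17 mice. These make 261 pairs. By permutation within groups, 45 pairs had an unadjusted p under 0.05 and 5 an adjusted p under 0.05. Hoxd8 went with the tubule: r was 0.853 with loop of Henle markers (permutation p = 1e-05, the smallest these can give, adjusted p = 0.00261; rho 0.870, permutation p = 2e-05) and 0.875 with distal tubule markers (permutation p = 6e-05, adjusted p = 0.00522; rho 0.885, permutation p = 0.00012). The saline mice with the highest distal tubule means, 1 and 3 (7.07 and 7.06 in log2 CPM), had the highest Hoxd8, 145 and 131 CPM.

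Hoxa10 and Hoxa9 were lower in mice with more glomerular endothelium RNA than their group, at r of -0.845 (permutation p = 5e-05, adjusted p = 0.00522; rho -0.811, permutation p = 0.00038) and -0.815 (permutation p = 0.00048, adjusted p = 0.0313; rho -0.779, permutation p = 0.00159). Hoxa11 was higher with mesangium markers, at r of 0.807 (permutation p = 0.00075, adjusted p = 0.0392; rho 0.699, permutation p = 0.00355). For Hoxa9 and Hoxa11 the adjusted permutation p of rho was 0.0692 and 0.111. Hoxc8, whose level fell with podocyte markers between the groups, had an r of 0.716 with them within groups (permutation p = 0.0046, adjusted p = 0.109; rho 0.574, permutation p = 0.0311).

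Without the 2 mice farthest from the median of each list mean, r was 0.813 for Hoxd8 and the loop, 0.859 for Hoxd8 and the distal tubule, -0.761 and -0.697 for Hoxa10 and Hoxa9 with endothelium, and 0.627 for Hoxa11 with mesangium. No pair then had an adjusted permutation p under 0.05 (lowest 0.0600), so none of the 5 relations held at that threshold over the remaining 15 mice. All 5 values kept their sign, and r of Hoxd8 moved little. Within the 7 atrasentan mice alone r was 0.861 and 0.874 for Hoxd8 (exact permutation p = 0.00119 and 0.00754), -0.770 for Hoxa10 (exact p = 0.0464), -0.365 for Hoxa9 (exact p = 0.424) and 0.822 for Hoxa11 (exact p = 0.0236), and none of the 261 passed adjustment. The groups of 5 are too small to be given alone. The tubule lists also went together (r of loop and distal tubule means 0.837), so a pair does not single out a segment.

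**Figure D4:**
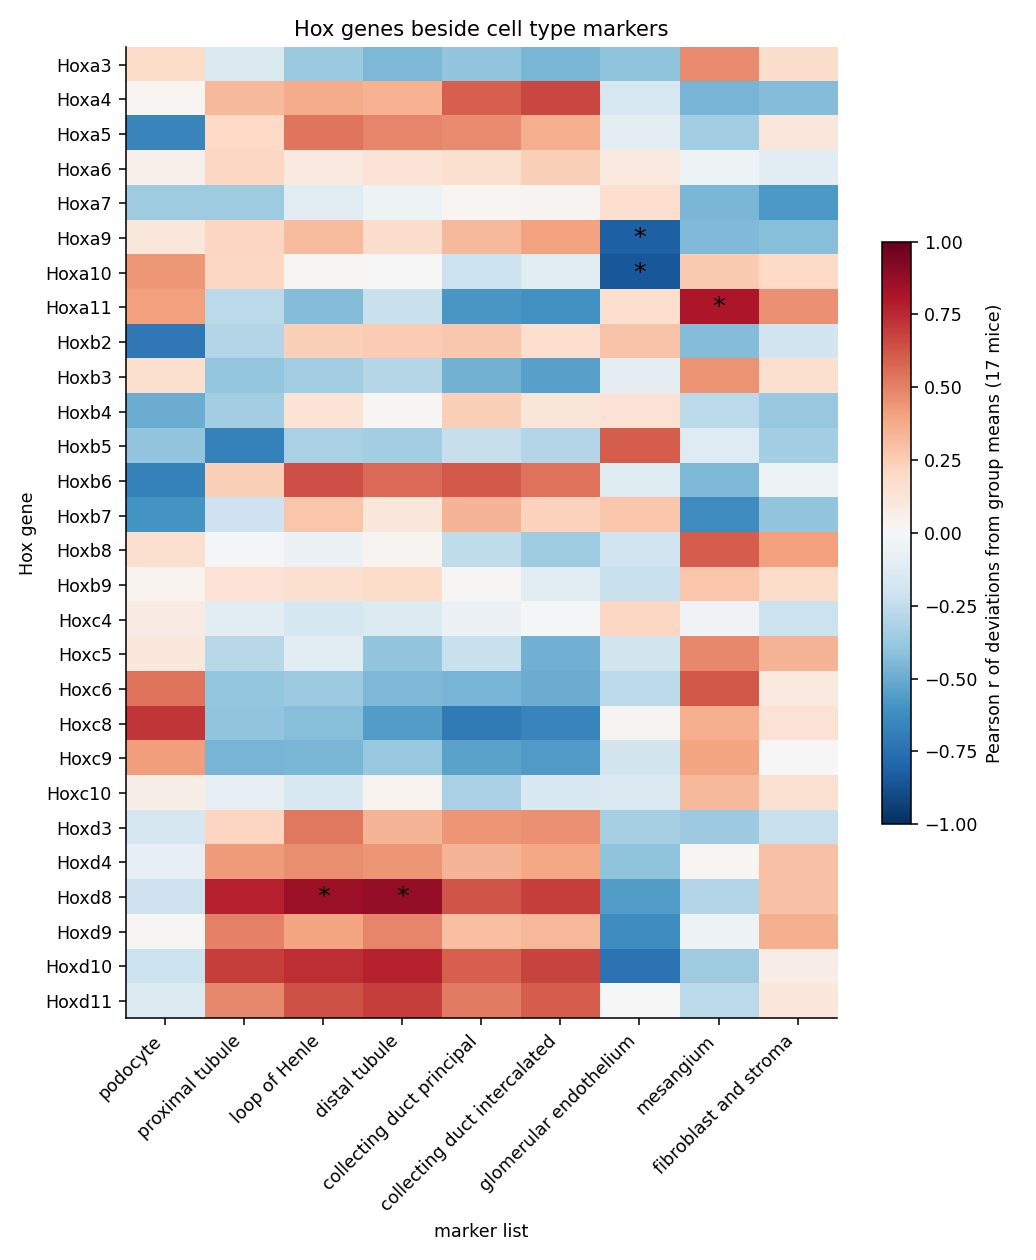
Pearson r between deviations from group means of 28 Hox genes (log2 CPM, rows by cluster) and of 9 marker list means (columns) over 17 mice; asterisks mark the 5 pairs with an adjusted permutation p under 0.05. Hoxd8 and Hoxd10 are positive across the tubule columns (r of Hoxd10 0.735 with the loop and 0.770 with the distal tubule), and Hoxc8 is positive with podocyte (0.716) and negative with collecting duct principal cell markers (-0.711).

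**Figure D5:**
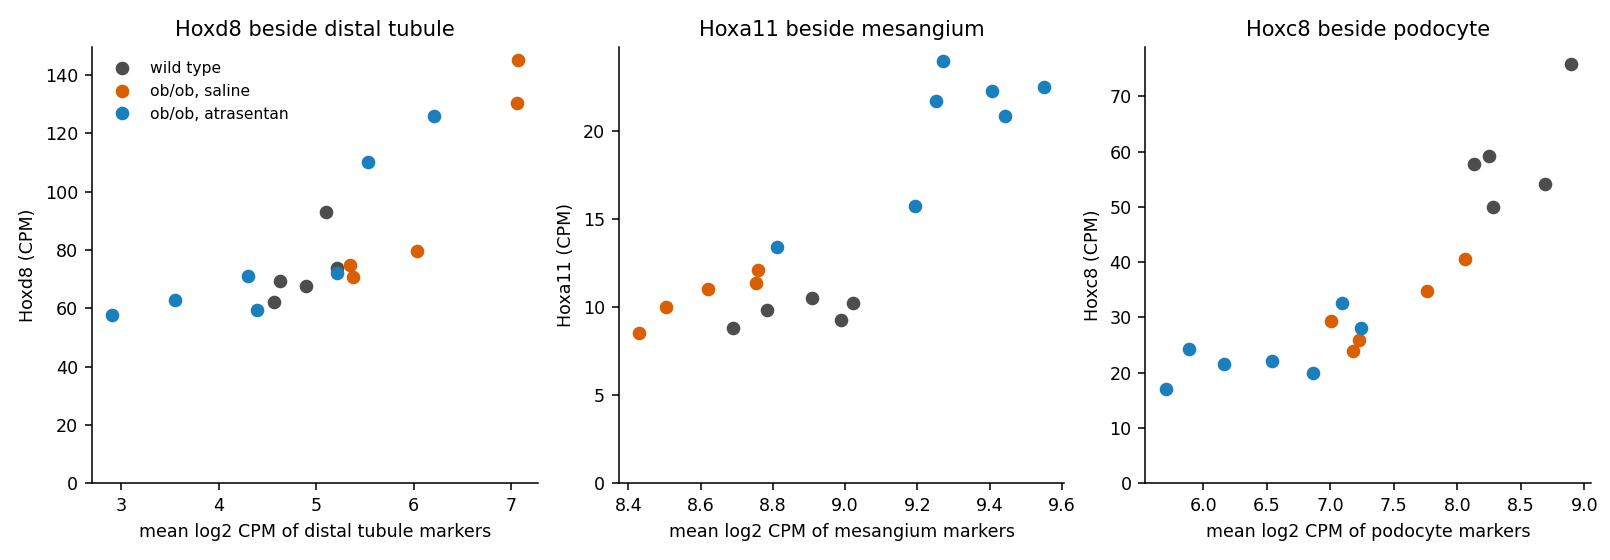
Level in CPM of Hoxd8, Hoxa11 and Hoxc8 against the mean log2 CPM of distal tubule, mesangium and podocyte markers, 1 point a mouse, coloured by group. Saline mice 1 and 3 are at the upper right for Hoxd8, and 6 of the 7 atrasentan mice lie to the right of all other mice in the mesangium mean.

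Other genes of the Hox system were read from the same fit, from lists written with earlier results of these data known. The counts below stand beside the shares of all genes called. These were 5.12% with saline against wild type, 33.8% with atrasentan against saline and 29.2% with atrasentan against wild type. Of 11 TALE partners, none was called in saline against wild type mice by edgeR (3 had an unadjusted p under 0.05). With atrasentan against saline 2 rose, Meis3 (0.57 ± 0.12, edgeR adjusted p = 0.00237) and Meis1 (0.48 ± 0.18, adjusted p = 0.0473). Against wild type Meis3 rose (0.45 ± 0.12, adjusted p = 0.00960), and Pknox2 fell by 1.31 ± 0.32 (adjusted p = 0.00613) and Meis2 by 0.39 ± 0.14 (adjusted p = 0.0388). The TALE median was 0.15 against saline and -0.06 against wild type.

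Of 11 tested upstream regulators of Hox genes, 1 fell with saline against wild type, 2 rose with atrasentan against saline, and 3 rose and 3 fell with atrasentan against wild type. Aldh1a2, which makes retinoic acid, was at 57.6 ± 30.4 CPM in wild type, 108 ± 43.0 with saline and 219 ± 108 with atrasentan, and rose by 1.02 ± 0.37 against saline (edgeR adjusted p = 0.0423) and by 1.93 ± 0.39 against wild type (adjusted p = 0.00131). The receptor gene Rara rose by 0.37 ± 0.11 (adjusted p = 0.0166) and 0.62 ± 0.11 (adjusted p = 0.000566). Cyp26a1, which breaks retinoic acid down, fell by 2.31 ± 0.52 against wild type (adjusted p = 0.00317; 2.07 ± 1.45 against 10.3 ± 5.58 CPM). Gdf11, a signal for posterior Hox genes, fell by 0.76 ± 0.14 in saline-treated against wild type mice (adjusted p = 0.0104), the 1 gene of the list called there.

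Of 30 genes of the polycomb and trithorax groups, which keep Hox genes off or on, none was called with saline against wild type by edgeR (2 had an unadjusted p under 0.05). With atrasentan 8 rose and 1 fell against saline (median 0.12), and 4 rose and 3 fell against wild type (median 0.12). Of all genes tested, 15.3% rose and 18.5% fell against saline, and 14.7% rose and 14.5% fell against wild type. The polycomb gene Phc2 rose by 0.60 ± 0.10 against saline (adjusted p = 0.000414; 452 ± 38.8 against 298 ± 47.1 CPM), Wdr5 rose by 0.29 ± 0.07 (adjusted p = 0.00530) and the methyltransferase gene Dot1l fell by 0.64 ± 0.15 (adjusted p = 0.00342). Of 22 tested partners of Hox genes in kidney patterning, 3 fell with saline against wild type: Wt1 (by 1.17 ± 0.28, adjusted p = 0.0281), Wnt4 and Wnt11. With atrasentan 9 fell and 1 rose against saline (median -1.005) and 11 fell and 2 rose against wild type (median -1.07). Pax2 and Pax8, which act with Hox11 proteins and also mark tubule and parietal epithelium, fell by 2.68 ± 0.52 (adjusted p = 0.00120) and 2.27 ± 0.38 (adjusted p = 0.000464) against saline. Eya1 fell by 4.62 ± 0.80 against wild type (adjusted p = 0.000436), from 1.496 ± 0.677 to 0.0605 ± 0.118 CPM.

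Of 8 protein genes that flank them, none was called with saline against wild type by edgeR (1 had an unadjusted p under 0.05), and 2 rose with atrasentan in each comparison, among them Snx10 beside cluster A (0.59 ± 0.22 against saline, adjusted p = 0.0437). Of 7 tested genes of the list of RNA genes of the clusters, Hoxa11os and Hoxd3os1 rose and Hoxaas2 fell with atrasentan (by 1.69 ± 0.51 against saline, adjusted p = 0.0182), and the other 4 were not called. Outside that list, the RNA gene Gm29430, which overlaps Hoxa3 and Hoxa4, fell by 2.51 ± 0.61 against saline (adjusted p = 0.00493), on 0 to 29 reads a library, and was named after its value was seen. Cluster A lies on the same chromosome as Lep, 23.08 Mb away. The ob mutation is a point mutation, and Lep had 1 read in 1 library and none in the other 16, so its RNA does not check the genotype labels.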

How the data were processed

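RNA of glomeruli-enriched kidney cortex from 17 mice was sequenced as poly(A) libraries with single-end reads, per the labels' protocols. The authors deposited raw read counts per gene, and a table of normalized log2 values of 17338 genes (33 members) that was used only as an alternative, with limma. STAR, HTSeq, DESeq2, edgeR, limma and the build GRCm38 are listed in the submitters' processing notes. No source used here gives the annotation release, the strand setting or how reads over several genes were counted. Rows of the count table that name no gene stayed out of library sizes, and reads outside genes were 3.17% to 8.58% of a library.

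Gene IDs were matched to GENCODE M21 (53274 of 53379 got a symbol). Counts were scaled by TMM (factors 0.892 to 1.15), filtered by filterByExpr (17766 genes) and fitted over all 17 mice with edgeR 4.0.16 (quasi-likelihood F-test, Benjamini-Hochberg adjustment over all genes, threshold 0.05, biological coefficient of variation 0.312) in R 4.3.3. On simulated counts for atrasentan against saline, 66% of genes changed by 1 on the log2 scale and 92% of those changed by 2 were recovered, and 7.06% of calls were false. Per-length levels divide CPM by the union of exons. Relations used members called in any comparison or with a mean of at least 1 CPM, and 100000 permutations within groups. Called members of lower level were thus included, such as Hoxd11 (mean 0.387 CPM) and Hoxd3 (0.311 CPM). Among 41 pairs of mice of 1 group, the chi-square per degree of freedom of their counts was 24.0 or more, so no library repeats another. Floors cover counting error only, while the SDs and SEs given include the spread between mice.

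Values are given for each member called in any comparison and for the 5 members of highest per-length level. They are given for every wild type and saline mouse, and as range and median for the atrasentan mice. Of the other lists, at most 4 called genes per list and comparison were named, by lowest adjusted p. Of the genes these rules take, 1 member and 1 gene of another list are not reported here, but stay in all counts. The members and lists were chosen with earlier results of these data known. Alternatives were other scalings, DESeq2 1.42.0, limma-voom (limma 3.58.1), no low-count filter, 2 groups only, marker covariates and leaving out mice.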

Additional observations from a re-analysis of the deposited data

Results flagged for a closer look

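Among 57 groups examined (19 members in 3 groups of mice), 3 held a mouse far from the others of its group by Dixon's test, where chance gives about 1 in 20. Hoxb3 was at 3.13 CPM in saline mouse 2, beside 2.09 to 2.22 CPM in the other 4. Hoxb3 was at 0.816 CPM in atrasentan mouse 5, beside 1.45 to 1.90 CPM in the other 6. Hoxd9 was at 55.8 CPM in atrasentan mouse 6, beside 33.5 to 42.8 CPM in the other 6.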

How the results depend on the processing

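No paired analysis was possible because the labels number no replicates. In saline against wild type mice, 910 genes were called, against 2000 with DESeq2, 550 with limma-voom and 1430 with the 2 groups alone. Members called were 2, against 1 with limma-voom and 1 with the authors' normalized table. With a covariate, genes and members called were 6 and 0 (glomerular share), 93 and 0 (collecting duct mean), 409 and 1 (reads outside genes) and 106 and 0 (proximal tubule mean), and without saline mice 1 and 3 they were 54 and 0. Leaving out 1 mouse gave 216 to 1523 genes and 1 to 3 members.

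In atrasentan against saline, 6001 genes and 10 members were called, against 1651 and 2 (glomerular share), 3242 and 6 (collecting duct mean), 1931 and 0 (reads outside genes), 3 and 0 (proximal tubule mean) and 2577 and 4 (without saline mice 1 and 3), and 5 members with the stroma mean. Leaving out 1 mouse gave 4361 to 6338 genes and 6 to 11 members. In atrasentan against wild type, 5190 genes and 12 members were called, against 582 and 0 with the reads outside genes and 6 members with the proximal tubule mean. Leaving out 1 mouse gave 4092 to 5622 genes and 7 to 13 members. The covariates of reads outside genes and of the proximal tubule were chosen after seeing the data, and the cause of these differences was not tested. Reads outside genes did not overlap between atrasentan mice and either other group, nor the proximal tubule mean between atrasentan and saline mice. Fits with them could not fully separate covariate from group.

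The log2 fold change turned for Hoxb5 against saline with the proximal tubule mean (-0.16), and for Hoxb4 (0.20) and Hoxc4 (0.21) against wild type with the reads outside genes. With upper-quartile scaling all genes called were 503 higher and 483 lower in saline against wild type (570 and 340 with TMM), and 1897 and 3153 in atrasentan against wild type (2619 and 2571). Per length, cluster A held 28.4%, 26.3% and 28.2% of Hox levels in wild type, saline and atrasentan mice, cluster B 26.0%, 27.1% and 30.7%, and cluster C 25.5% in wild type. With the longest transcript as length, Hoxa10 was at 31.2 CPM per kb. Without the 2 mice farthest from the median, 0 of 261 pairs of a gene and a marker mean passed, and r was 0.813 and 0.859 (Hoxd8), -0.761 (Hoxa10), -0.697 (Hoxa9) and 0.627 (Hoxa11). Depth limits the members under 1 CPM: Hoxd3 and Hoxd11 rest on 0 to 26 reads a library.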
